A study of Mus musculus with 103 samples.

Results

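The transfer RNA (tRNA) pool of wild-type (WT) mouse cortex was measured in the same 3 mice with 2 sequencing assays, dm-Hydro-tRNAseq and YAMAT-seq, and these 6 libraries of the 103 samples in the series are described here. The study removed or raised Nsun2, a tRNA methyltransferase, in forebrain neurons, and its knockout libraries enter no comparison. The WT mice were adult controls labelled "Nsun2 floxed, Camk2a-Cre neg.", so the floxed allele was present and no recombinase was there to delete it. RNA was taken from cortex as a whole, so neurons, glia and vessel cells were pooled, and in such bulk samples fewer cells of a type and less RNA per cell cannot be told apart. The dm-Hydro-tRNAseq table listed 162 nuclear isodecoders, the YAMAT-seq table listed 218 nuclear isodecoders and 22 mitochondrial tRNAs, and 158 nuclear isodecoders stood in both. The YAMAT-seq list included isodecoders with no read in these mice, so the lengths of the lists are not counts of detected tRNAs. Every value below is the share that a tRNA took of the summed nuclear tRNA signal of its library, in percent, unless a mitochondrial share is named.

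A tRNA carries 1 amino acid and reads codons in mRNA through its anticodon. tRNAs with the same anticodon and another base elsewhere in the body are called isodecoders, tRNAs for the same amino acid form a family, and the nuclear genome of mammals holds many tRNA genes for most families, whereas the mitochondrial genome codes for a small set of its own. Names here follow the files: Gln-CTG-2-1 is an isodecoder of the glutamine family with the anticodon CTG, written as DNA. Mature tRNAs end in CCA, which an enzyme adds after transcription, and the base before it is the discriminator base, the last one that the gene itself encodes.

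The assays read a tRNA in different ways. In dm-Hydro-tRNAseq, gel-purified tRNAs were treated with demethylase to remove base methylations that stop reverse transcription, broken into short fragments with mild alkali and sequenced as small RNA. In YAMAT-seq, a forked adapter was ligated to the paired ends of uncut mature tRNAs over the discriminator base and CCA, after the amino acid and methyl groups had been removed, and reads were collapsed by molecular identifier. The 3 YAMAT-seq libraries held 72039, 56437 and 70143 nuclear reads, so that 1 read was worth between 0.00139% and 0.00177% of the pool. The dm-Hydro-tRNAseq values were read counts scaled to a common total (CPM), and the listed isodecoders took between 45.3% and 50.4% of the library's CPM in each mouse.

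Reference sequences of tRNAs that differed strongly between the assays are given from the RefSeq annotation of mouse build GRCm38.p6, with the anticodon in capitals and without the CCA end. Each is the commonest gene sequence for its anticodon, 5′ to 3′ on the strand of the gene. Arg-TCT is the exception, as all its gene sequences differ and the first in alphabetical order is given. The isodecoder names of the files are not paired with RefSeq genes, so each stands for an anticodon. The histidine, glutamine and glycine tRNAs took larger shares in dm-Hydro-tRNAseq.
His-GTG: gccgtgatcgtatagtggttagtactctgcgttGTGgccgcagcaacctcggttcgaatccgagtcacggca
Gln-CTG: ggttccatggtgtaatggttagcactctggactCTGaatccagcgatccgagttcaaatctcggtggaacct
Gly-GCC: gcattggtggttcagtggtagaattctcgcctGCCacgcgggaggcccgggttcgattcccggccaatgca
They lie at chr3:96410069-96410140 (plus strand), chr9:64738046-64738117 (plus) and chr1:171044985-171045055 (plus), and are the sequence of 5 of 7, 4 of 10 and 7 of 13 annotated genes of their anticodon.

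The proline, aspartate and arginine tRNAs took smaller shares in dm-Hydro-tRNAseq than in YAMAT-seq.
Pro-AGG: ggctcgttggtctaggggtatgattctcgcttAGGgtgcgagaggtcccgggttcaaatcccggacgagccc
Pro-CGG: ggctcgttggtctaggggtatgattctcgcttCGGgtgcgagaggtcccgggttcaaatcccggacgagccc
Pro-TGG: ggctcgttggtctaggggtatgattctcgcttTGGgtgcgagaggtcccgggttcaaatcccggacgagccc
Asp-GTC: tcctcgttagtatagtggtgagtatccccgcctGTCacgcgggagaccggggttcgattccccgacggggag
Arg-TCT: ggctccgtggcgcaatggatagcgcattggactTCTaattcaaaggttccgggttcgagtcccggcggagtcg
The proline genes lie at chr1:165641634-165641705 (plus), chr1:165642271-165642342 (minus) and chr3:51358354-51358425 (plus), and any pair of them differs in 1 base of 72, in the anticodon. The Asp-GTC gene lies at chr1:171037029-171037100 (minus) and its sequence is that of 13 of 15 genes. The Arg-TCT gene at chr3:122292948-122293032 (minus) is 1 of 5, all with different sequences, and is printed without its 12-base intron.

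Within an assay the 3 mice gave nearly the same pool, and between the assays the pools differed. Across 148 isodecoders, the log2 shares of any pair of mice correlated at r of 0.986 or more within dm-Hydro-tRNAseq and at 0.979 or more within YAMAT-seq. Between the assays the same measure was r = 0.38 and rho = 0.38 over the means of the mice, and 0.36 and 0.43 over 48 anticodons, and 0.42 and 0.47 over 22 families. These correlations run across tRNAs that share libraries and a common total, and are given as a description. Over the mice, the log2 share of an isodecoder had a median SD of 0.21 in dm-Hydro-tRNAseq against 0.32 in YAMAT-seq, against a median absolute difference between the assays of 2.24.

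Of the 158 isodecoders in both tables, 148 had a mean share of at least 0.01% over all 6 libraries and were tested. Of these, 131 (88.5%) differed between the assays at an adjusted p under 0.05 (limma on log2 shares, Benjamini-Hochberg), and for 129 (87.2%) the 3 dm-Hydro-tRNAseq values did not overlap the 3 YAMAT-seq values. Of these calls, 56 (37.8% of those tested) were higher in dm-Hydro-tRNAseq and 75 (50.7%) were lower. The minimum share was a mean over both assays, so some isodecoders, such as Gly-CCC-4-1 and Arg-TCT-1-1, met it through a single assay. For these, a high share there was a condition of being tested, and they are among the calls. At the level of anticodons 40 of 48 (83.3%) passed, 13 higher (27.1%) and 27 lower (56.2%), and the same number, 40 (83.3%), did not overlap. Among families 18 of 22 passed (81.8%), 7 higher (31.8%) and 11 lower (50.0%), and 18 (81.8%) did not overlap. Shares sum to 100% in each library, and the median difference was -0.74 for isodecoders, -1.34 for anticodons and -0.75 for families on the log2 scale. With each library centred on its own median log2 share, the splits were 72 higher and 56 lower for isodecoders, 28 and 16 for anticodons, and 13 and 7 for families. Differences of 4-fold or more were seen for 87 isodecoders and of 16-fold or more for 24.

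**Figure D1:**
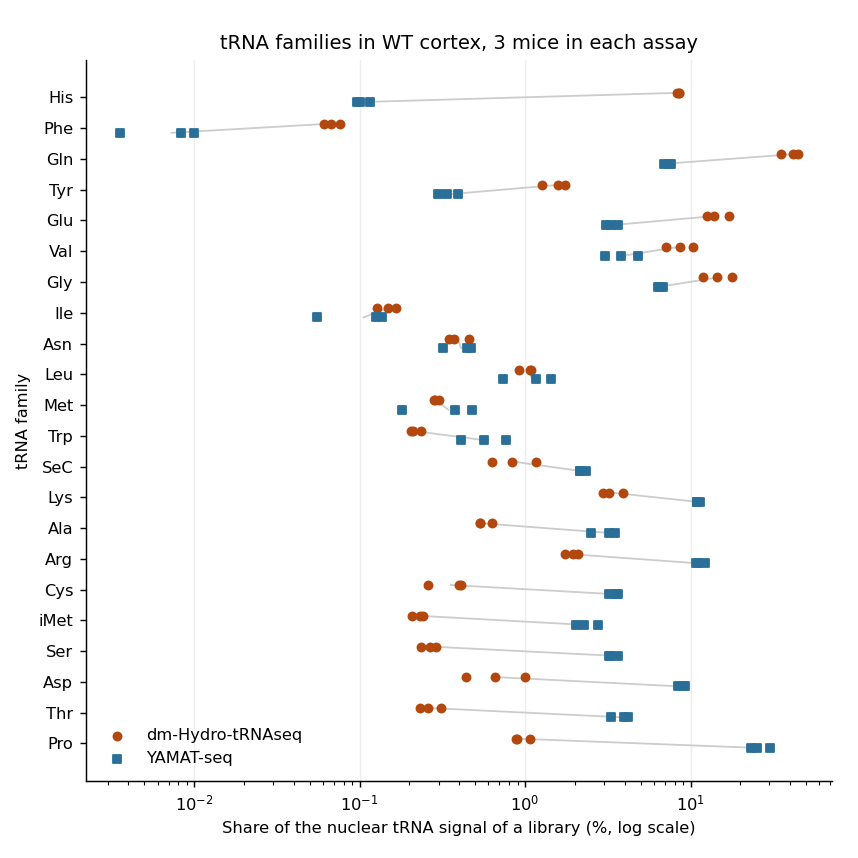
Share of the nuclear tRNA signal (%, log scale) for each of 22 families in dm-Hydro-tRNAseq (circles) and YAMAT-seq (squares), 1 point a mouse, with a line between the means of each assay. Histidine lies furthest apart in one direction (means of 8.42% in dm-Hydro-tRNAseq against 0.104% in YAMAT-seq) and proline in the other (0.946% in dm-Hydro-tRNAseq against 26.2% in YAMAT-seq), and the points of Ile, Asn, Leu and Met overlap.

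Glutamine tRNA led the dm-Hydro-tRNAseq pool and proline tRNA the YAMAT-seq pool. Here and below, ± after a share is the SD over 3 mice and ± after a log2 difference is its SE. The glutamine family took 41.7%, 35.0% and 44.8% of the dm-Hydro-tRNAseq signal in mice 1 to 3, against 7.60%, 6.88% and 7.40% of the YAMAT-seq signal, a difference of 2.47 ± 0.14 (log2; limma, adjusted p = 4.99e-16). The proline family took 0.896%, 0.875% and 1.07% in dm-Hydro-tRNAseq, against 25.3%, 30.2% and 23.3% in YAMAT-seq (-4.78 ± 0.17, adjusted p = 2.02e-21). Every mouse thus had glutamine above proline by dm-Hydro-tRNAseq and proline above glutamine by YAMAT-seq. Of the 5 most abundant families in each assay, glutamine was the only one in both lists, and the list of dm-Hydro-tRNAseq took 86.8% of its signal, that of YAMAT-seq 64.9%.

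Histidine tRNA, which receives an extra G at its 5′ end after transcription, had the largest difference of all families. It took 8.51%, 8.50% and 8.25% in dm-Hydro-tRNAseq against 0.115%, 0.0957% and 0.0998% in YAMAT-seq, where it rested on 83, 54 and 70 reads (6.28 ± 0.20, adjusted p = 3.63e-22). It ranked 5 of 22 in dm-Hydro-tRNAseq and 21 of 22 in YAMAT-seq. Nearly all of it was the isodecoder His-GTG-2-1, at 8.11%, 8.08% and 7.80% in dm-Hydro-tRNAseq against 0.0819%, 0.0744% and 0.0813% in YAMAT-seq.

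Glutamate, glycine, valine and tyrosine tRNAs also took larger shares in dm-Hydro-tRNAseq. The glutamate family held 13.8%, 17.0% and 12.6% there and 3.31%, 3.08% and 3.64% in YAMAT-seq (2.10 ± 0.16, adjusted p = 4.12e-13). The glycine family, the one the study followed after Nsun2 loss, held 14.5%, 17.9% and 11.9% in dm-Hydro-tRNAseq against 6.33%, 6.57% and 6.86% in YAMAT-seq (1.14 ± 0.16, adjusted p = 1.22e-07). No mouse overlapped between assays in either family, and mouse 2 was the highest of the 3 in dm-Hydro-tRNAseq for both. Without Gly-GCC-3-1 and Gly-GCC-4-1, the glycine difference was 0.24 (adjusted p = 0.185). Valine averaged 8.68% ± 1.62 in dm-Hydro-tRNAseq against 3.87% ± 0.886 in YAMAT-seq (SD, n = 3 mice each), and tyrosine averaged 1.53% ± 0.252 in dm-Hydro-tRNAseq against 0.343% ± 0.0478 in YAMAT-seq. Phenylalanine was scarce in both assays, at 0.0682% ± 0.00761 in dm-Hydro-tRNAseq against 0.00728% ± 0.00334 in YAMAT-seq, where it rested on 15 reads over the 3 mice.

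The other families that were lower in dm-Hydro-tRNAseq had log2 differences between -3.82 (threonine) and -1.36 (tryptophan). Aspartate stood at 0.660%, 0.996% and 0.440% in dm-Hydro-tRNAseq against 8.35%, 9.22% and 9.02% in YAMAT-seq (-3.73 ± 0.22, adjusted p = 4.99e-16). Threonine averaged 0.267% ± 0.0384 in dm-Hydro-tRNAseq against 3.82% ± 0.444 in YAMAT-seq, and serine 0.264% ± 0.0265 in dm-Hydro-tRNAseq against 3.38% ± 0.226 in YAMAT-seq. Cysteine averaged 0.356% ± 0.0826 in dm-Hydro-tRNAseq against 3.48% ± 0.221 in YAMAT-seq, and its 4 listed isodecoders in dm-Hydro-tRNAseq stood against 25 in YAMAT-seq. Some of those 25, such as Cys-GCA-9-1 and Cys-GCA-18-1, had no read in any WT mouse, so these are not counts of detected tRNAs. The initiator methionine tRNA, which starts translation and does not serve elongation, averaged 0.226% ± 0.0169 in dm-Hydro-tRNAseq against 2.34% ± 0.366 in YAMAT-seq (-3.33 ± 0.21, adjusted p = 4.80e-15). The elongator methionine tRNA, at 0.289% ± 0.0105 in dm-Hydro-tRNAseq against 0.344% ± 0.151 in YAMAT-seq, did not pass (-0.14 ± 0.29, adjusted p = 0.697). With each library centred on its median log2 share, its difference was 1.92 and passed.

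Arginine averaged 1.93% ± 0.184 in dm-Hydro-tRNAseq against 11.4% ± 0.697 in YAMAT-seq, lysine 3.36% ± 0.501 in dm-Hydro-tRNAseq against 11.1% ± 0.270 in YAMAT-seq (-1.73 ± 0.16, and 0.32 with median centring, which did not pass), and alanine 0.566% ± 0.0581 in dm-Hydro-tRNAseq against 3.08% ± 0.516 in YAMAT-seq (-0.37 with median centring, which did not pass). Selenocysteine tRNA, the single tRNA that inserts selenocysteine at UGA, stood at 1.17%, 0.832% and 0.632% in dm-Hydro-tRNAseq against 2.16%, 2.33% and 2.14% in YAMAT-seq (-1.37 ± 0.21). Tryptophan averaged 0.217% ± 0.0164 in dm-Hydro-tRNAseq against 0.581% ± 0.179 in YAMAT-seq (-1.36 ± 0.25). For these last 2 families the difference turned positive when each library was centred on its median (0.68 and 0.70). Leucine, asparagine and isoleucine did not pass, with differences of -0.07 ± 0.23, -0.05 ± 0.24 and 0.55 ± 0.32. With median centring these were 1.99, 2.00 and 2.61 and passed.

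At the level of anticodons, differences ran within families as well as between them. The arginine family was lower in dm-Hydro-tRNAseq mainly through Arg-TCT, which reads AGA codons and held 0.0723%, 0.0860% and 0.0472% there against 5.56%, 5.57% and 5.73% in YAMAT-seq (-6.30 ± 0.22, adjusted p = 5.75e-11), the most negative anticodon. On the uncentred shares, Arg-CCG (-2.96 ± 0.21), Arg-ACG (-1.44 ± 0.19) and Arg-CCT (-1.35 ± 0.17) were also lower. Arg-TCG, in the same family, did not pass (-0.48 ± 0.22, adjusted p = 0.0615). The glutamine family was higher through Gln-CTG, at 38.0%, 31.5% and 40.1% in dm-Hydro-tRNAseq against 3.89%, 3.69% and 3.85% in YAMAT-seq (3.25 ± 0.13, adjusted p = 1.28e-10). Gln-TTG stood at 3.78%, 3.54% and 4.68% in dm-Hydro-tRNAseq against 3.70%, 3.19% and 3.55% in YAMAT-seq, overlapped and did not pass (0.19 ± 0.16, adjusted p = 0.272). With median centring the Gln-TTG difference was 2.38 and passed (limma, adjusted p = 1.26e-11).

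The glycine anticodons moved in both directions. Gly-GCC, the main glycine tRNA in dm-Hydro-tRNAseq, held 13.2%, 16.2% and 10.9% there and 2.18%, 2.44% and 2.40% in YAMAT-seq (2.50 ± 0.17, adjusted p = 1.56e-08). Gly-CCC averaged 0.985% ± 0.303 in dm-Hydro-tRNAseq against 2.42% ± 0.0862 in YAMAT-seq (-1.33 ± 0.22, adjusted p = 7.23e-05, and 0.85 with median centring), and Gly-TCC 0.286% ± 0.0592 in dm-Hydro-tRNAseq against 1.83% ± 0.268 in YAMAT-seq (-2.67 ± 0.21). In dm-Hydro-tRNAseq the anticodons ran GCC, CCC, TCC without overlap, while the YAMAT-seq values of GCC and CCC overlapped. Gly-ACC, whose single isodecoder averaged 0.0707% ± 0.0212 in dm-Hydro-tRNAseq, gave 1 read over the 3 YAMAT-seq libraries, a ratio of 140 with an exact Poisson 95% interval of 25.2 to 5546 that covers counting error only.

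The 3 main proline anticodons, whose commonest gene sequences differ in the anticodon alone, had similar differences. Pro-TGG averaged 0.477% ± 0.0678 in dm-Hydro-tRNAseq against 12.6% ± 1.77 in YAMAT-seq (-4.71 ± 0.18), Pro-CGG 0.244% ± 0.0194 in dm-Hydro-tRNAseq against 7.64% ± 1.00 in YAMAT-seq (-4.94 ± 0.17), and Pro-AGG 0.225% ± 0.0213 in dm-Hydro-tRNAseq against 6.04% ± 0.752 in YAMAT-seq (-4.71 ± 0.18). In both assays Pro-TGG was the highest and Pro-AGG the lowest of the 3. For dm-Hydro-tRNAseq, short fragments were sequenced and reads that matched several tRNAs had been divided by the authors. The part of that division in the proline values and their order was not tested. Pro-GGG was listed in YAMAT-seq alone, with 2 reads.

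Among the other anticodons that lead an assay, Glu-CTC held 8.87%, 11.6% and 8.71% in dm-Hydro-tRNAseq against 2.39%, 2.32% and 2.53% in YAMAT-seq (2.00 ± 0.16), and Glu-TTC averaged 4.75% ± 0.824 in dm-Hydro-tRNAseq against 0.934% ± 0.179 in YAMAT-seq (2.34 ± 0.20). Val-AAC averaged 4.39% ± 0.812 in dm-Hydro-tRNAseq against 1.38% ± 0.408 in YAMAT-seq, and Val-CAC 4.10% ± 0.822 in dm-Hydro-tRNAseq against 1.62% ± 0.291 in YAMAT-seq. Lys-CTT averaged 2.88% ± 0.422 in dm-Hydro-tRNAseq against 10.5% ± 0.384 in YAMAT-seq (-1.87 ± 0.15, and 0.31 with median centring, which did not pass). Ser-CGA averaged 0.0202% ± 0.00314 in dm-Hydro-tRNAseq against 0.859% ± 0.0634 in YAMAT-seq (-5.11 ± 0.20), and Thr-TGT 0.0784% ± 0.00772 in dm-Hydro-tRNAseq against 1.89% ± 0.117 in YAMAT-seq (-4.51 ± 0.19).

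**Figure D2:**
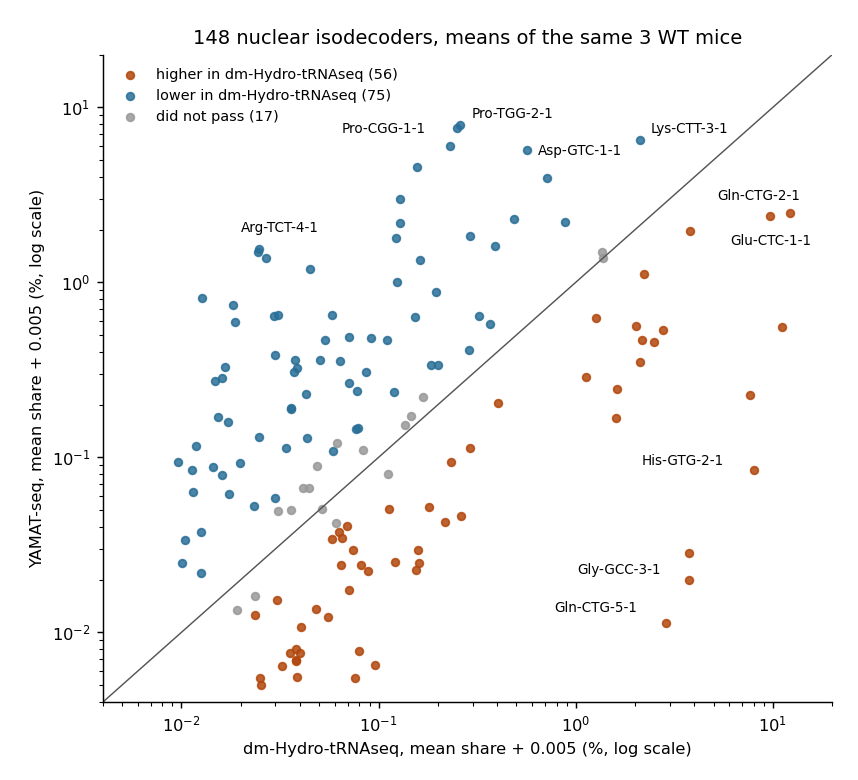
Mean share of 148 isodecoders in dm-Hydro-tRNAseq (x axis) and YAMAT-seq (y axis), both in percent plus 0.005 on log scales, with the line of equal shares; colours mark the 56 that were higher in dm-Hydro-tRNAseq, the 75 that were lower and the 17 that did not pass. Gln-CTG-2-1 and Glu-CTC-1-1 are high in both, Gly-GCC-3-1 and Gln-CTG-5-1 lie far below the line, and Arg-TCT-4-1 far above it.

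Of the 10 most abundant isodecoders in each assay, Gln-CTG-2-1 and Glu-CTC-1-1 were in both lists. Gln-CTG-2-1 was the most abundant in dm-Hydro-tRNAseq, at 12.7%, 10.9% and 12.8%, against 2.46%, 2.57% and 2.45% in YAMAT-seq (2.28 ± 0.13, adjusted p = 1.16e-10). Glu-CTC-1-1 held 8.82%, 11.5% and 8.66% in dm-Hydro-tRNAseq against 2.35%, 2.29% and 2.49% in YAMAT-seq (2.01 ± 0.15, adjusted p = 1.94e-09). The other leaders of dm-Hydro-tRNAseq were isodecoders of Gln-CTG, Gly-GCC and His-GTG. The other leaders of YAMAT-seq were isodecoders of Pro, Lys-CTT and Asp-GTC, headed by Pro-TGG-2-1, with 0.243%, 0.248% and 0.275% in dm-Hydro-tRNAseq against 7.58%, 9.16% and 7.06% in YAMAT-seq.

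The 3 largest positive differences were those of isodecoders with few reads in YAMAT-seq. Gln-CTG-5-1 held 2.66%, 2.41% and 3.57% in dm-Hydro-tRNAseq and rested on 2, 1 and 10 reads in YAMAT-seq (8.15 ± 0.34, adjusted p = 1.94e-12). Gly-GCC-3-1 held 3.72%, 4.52% and 2.99% in dm-Hydro-tRNAseq against 0.0194%, 0.00709% and 0.0185% in YAMAT-seq (7.60 ± 0.28), and Gly-GCC-4-1 held 3.74%, 4.55% and 3.01% in dm-Hydro-tRNAseq against 0.0125%, 0.0106% and 0.0470% in YAMAT-seq (7.26 ± 0.36). His-GTG-2-1 came next (6.57 ± 0.17). Gln-CTG-1-1 averaged 7.68% ± 1.28 in dm-Hydro-tRNAseq against 0.223% ± 0.0302 in YAMAT-seq (5.07 ± 0.18), and Gln-CTG-3-1 11.1% ± 1.28 in dm-Hydro-tRNAseq against 0.554% ± 0.0493 in YAMAT-seq (4.31 ± 0.15). Leu-CAA-3-1 averaged 0.0914% ± 0.00128 in dm-Hydro-tRNAseq and had 3 reads in YAMAT-seq (ratio 60.5, exact Poisson 95% interval 20.7 to 294). Gly-CCC-4-1, at 0.0202% ± 0.00393 in dm-Hydro-tRNAseq, had no read among 198619 in YAMAT-seq and was at least 13.4-fold higher in dm-Hydro-tRNAseq, with 3 reads over the 3 libraries (0.00151%) as the limit that a count of 0 allows. In all, 6 of the tested isodecoders had 3 or fewer YAMAT-seq reads. All of them met the minimum mean share of 0.01% through dm-Hydro-tRNAseq alone, so a high share there was a condition of their being tested.

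The largest negative differences were those of Arg-TCT isodecoders. Arg-TCT-4-1, known in mice as an arginine tRNA expressed mainly in the central nervous system, was present in all 6 libraries, at 0.0232%, 0.0237% and 0.0120% in dm-Hydro-tRNAseq against 1.49%, 1.43% and 1.75% in YAMAT-seq (-6.02 ± 0.26, adjusted p = 2.15e-12). It ranked 124 of 162 in dm-Hydro-tRNAseq and 18 of 218 in YAMAT-seq. Arg-TCT-1-1, Arg-TCT-5-1 and Arg-TCT-2-1 had differences of -5.99, -5.94 and -5.73. They were followed by Ser-CGA-2-1 at 0.0133% ± 0.00221 in dm-Hydro-tRNAseq against 0.738% ± 0.0625 in YAMAT-seq (-5.35 ± 0.25), Thr-CGT-1-1 at 0.0136% ± 0.00427 in dm-Hydro-tRNAseq against 0.586% ± 0.0784 in YAMAT-seq (-5.01 ± 0.28), and Pro-CGG-1-1 and Pro-TGG-2-1 (-4.94 ± 0.17 and -4.92 ± 0.17).

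Other isodecoders of the named families varied among themselves. Gly-GCC-2-1 differed by 0.94 ± 0.17 and Gly-GCC-1-1 by 2.58 ± 0.18, far less than Gly-GCC-3-1 and Gly-GCC-4-1. Gly-CCC-1-1 was lower, at 0.481% ± 0.130 in dm-Hydro-tRNAseq against 2.29% ± 0.148 in YAMAT-seq (-2.27 ± 0.20), while Gly-CCC-2-1 and Gly-CCC-3-1 were higher (2.54 ± 0.35 and 1.35 ± 0.33). The initiator iMet-CAT-1-1 averaged 0.123% ± 0.00857 in dm-Hydro-tRNAseq against 2.18% ± 0.281 in YAMAT-seq (-4.09 ± 0.19), whereas iMet-CAT-2-1 (-0.75 ± 0.42, adjusted p = 0.10) and iMet-CAT-3-1 (0.07 ± 0.33, adjusted p = 0.837) did not pass. iMet-CAT-2-1 passed with the mouse as a replicate block (adjusted p = 0.0496) and without YAMAT-seq mouse 2 (-1.37, adjusted p = 5.62e-05). iMet-CAT-3-1 passed with median centring (1.26).

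**Figure D3:**
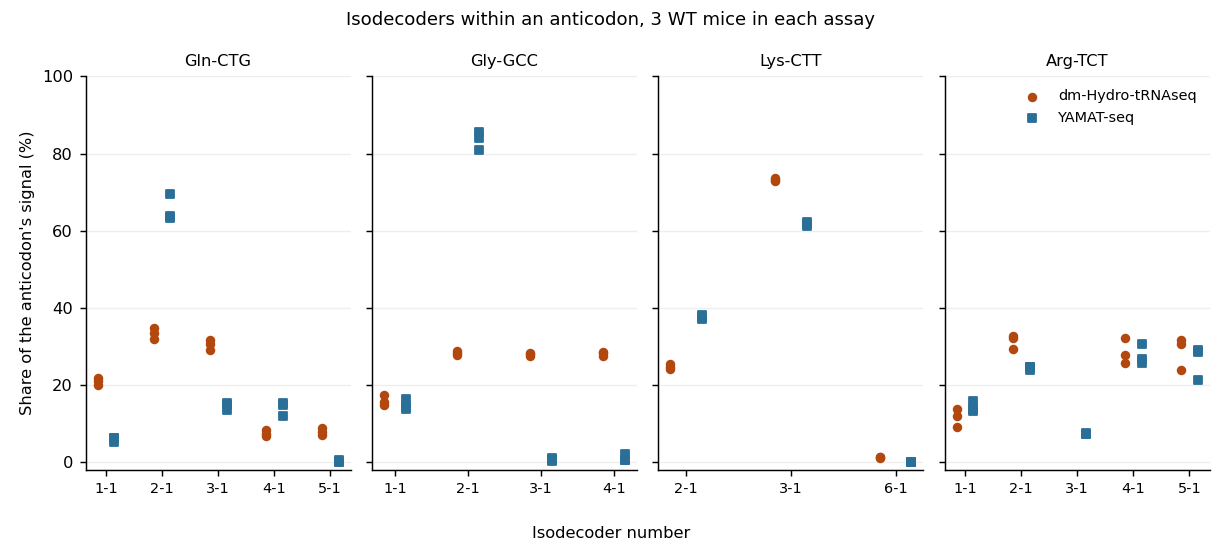
Share of each isodecoder in the summed signal of its anticodon (%), for 4 anticodons, with dm-Hydro-tRNAseq as circles and YAMAT-seq as squares, 1 point a mouse; isodecoders under 1% in both assays are left out. In Gly-GCC, isodecoders 2-1, 3-1 and 4-1 were level in dm-Hydro-tRNAseq, while 2-1 held 83.5% in YAMAT-seq, and in Arg-TCT isodecoders 1-1, 4-1 and 5-1 overlapped between the assays and 2-1 did not. The YAMAT-seq sum of Arg-TCT includes Arg-TCT-3-1, listed there alone, and Arg-TCT-1-1 would not overlap with it left out.

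Within an anticodon the assays gave closer values than across anticodons. Over 141 isodecoders of 41 anticodons with several members, the level of an isodecoder relative to its anticodon correlated at r = 0.66 and rho = 0.63 between the assays. Of the variance of the log2 differences, 74.8% lay between anticodons and 55.6% between families. These parts are nested, an anticodon of 1 isodecoder counts wholly as between, and the part that random groups would give was not computed. The SD of the difference was 2.87 over all isodecoders and 1.75 within anticodons. By the means of the mice, the leading isodecoder was the same in both assays for 33 of 42 anticodons. It differed for Gln-TTG, Ile-TAT, Leu-CAA, Leu-TAA and Ser-AGA, where each assay had 1 leader in every mouse. It also differed for Ala-TGC, Arg-TCT, Glu-TTC and Thr-AGT, where the leader varied between mice in at least 1 assay. Among the 33, the leader likewise varied between mice in 1 assay for Arg-ACG, Cys-GCA, Met-CAT, Ser-GCT and Ser-TGA.

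Of the 4 Arg-TCT isodecoders listed in both tables, 3 overlapped between the assays as shares of all isodecoders listed for that anticodon. Arg-TCT-1-1 overlapped narrowly, at 13.7009% in dm-Hydro-tRNAseq mouse 3 against 13.6727% in YAMAT-seq mouse 1. The YAMAT-seq sum includes Arg-TCT-3-1, and with it left out Arg-TCT-1-1 would not overlap. Arg-TCT-4-1 made up 28.4% ± 3.37 of Arg-TCT in dm-Hydro-tRNAseq against 27.6% ± 2.56 in YAMAT-seq, and Arg-TCT-5-1 28.6% ± 4.25 in dm-Hydro-tRNAseq against 26.3% ± 4.30 in YAMAT-seq. Arg-TCT-2-1 did not overlap, at 31.4% ± 1.92 in dm-Hydro-tRNAseq against 24.4% ± 0.509 in YAMAT-seq, and Arg-TCT-3-1, listed in YAMAT-seq alone, made up 7.37% ± 0.121 there. Of Lys-CTT, Lys-CTT-3-1 made up 73.2% ± 0.364 in dm-Hydro-tRNAseq against 61.7% ± 0.460 in YAMAT-seq. Of Asp-GTC, Asp-GTC-1-1 made up 79.9% ± 0.957 in dm-Hydro-tRNAseq against 64.6% ± 0.387 in YAMAT-seq.

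Gly-GCC and Gln-CTG differed within. Gly-GCC-2-1 made up 28.2% ± 0.50 of Gly-GCC in dm-Hydro-tRNAseq against 83.5% ± 2.36 in YAMAT-seq. Gly-GCC-3-1 made up 27.9% ± 0.414 in dm-Hydro-tRNAseq against 0.652% ± 0.319 in YAMAT-seq, and Gly-GCC-4-1 28.1% ± 0.431 in dm-Hydro-tRNAseq against 0.991% ± 0.845 in YAMAT-seq. The ratios between these 3 isodecoders lay between 0.993 and 1.01 in each dm-Hydro-tRNAseq library, and 13 pairs of isodecoders of the same anticodon agreed there within 5% in every mouse, Gln-TTG-1-1 and Gln-TTG-3-1 among them. Reads that matched several tRNAs had been divided by the authors. The part of that division in these values was not tested. Gln-CTG-2-1 made up 33.3% ± 1.38 of Gln-CTG in dm-Hydro-tRNAseq against 65.5% ± 3.50 in YAMAT-seq, and Gln-CTG-1-1 made up 20.9% ± 0.973 in dm-Hydro-tRNAseq against 5.83% ± 0.651 in YAMAT-seq.

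**Figure D4:**
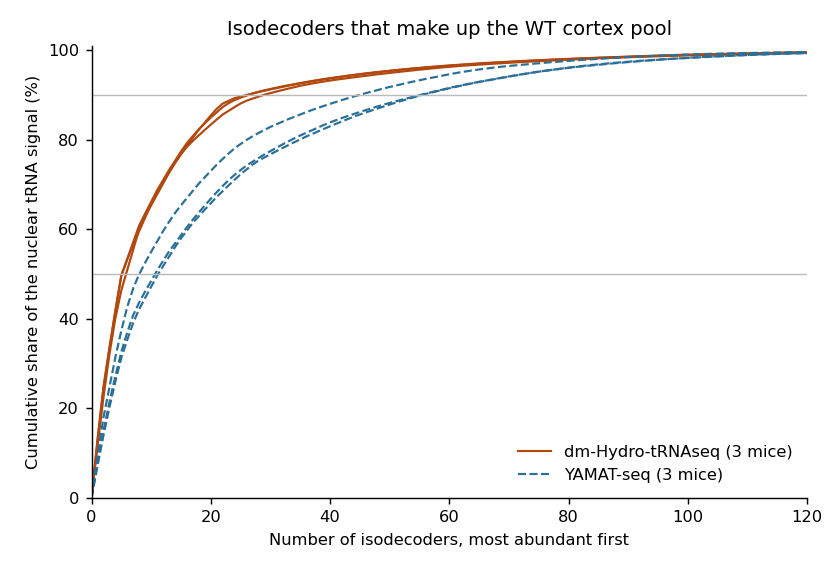
Cumulative share of the nuclear tRNA signal (%) against the number of isodecoders, most abundant first, with 1 line a mouse (solid, dm-Hydro-tRNAseq; dashed, YAMAT-seq) and grey lines at 50% and 90%. The dm-Hydro-tRNAseq lines climb faster, reaching 50% at 6 isodecoders in each mouse against 9 to 12 in YAMAT-seq, where mouse 2 lies apart from the other mice.

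The dm-Hydro-tRNAseq pool was concentrated in fewer isodecoders. The effective number of isodecoders, the exponential of the Shannon entropy of the shares, was 28.5, 30.4 and 28.5 in dm-Hydro-tRNAseq against 52.1, 42.3 and 53.8 in YAMAT-seq (exact permutation test, two-sided, p = 0.1, the smallest that 3 against 3 unpaired libraries can give). The test did not pair libraries by mouse. The 10 most abundant isodecoders of each mouse took 65.7% ± 0.385 in dm-Hydro-tRNAseq against 50.2% ± 4.18 in YAMAT-seq (SD, n = 3 each). To reach 90%, 27, 29 and 27 isodecoders were needed in dm-Hydro-tRNAseq against 56, 45 and 56 in YAMAT-seq. YAMAT-seq mouse 2, the shallowest library, had the largest proline share and the lowest effective number, and the part of depth in this was not tested.

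Little signal fell on isodecoders listed in a single table. The 4 that were listed in dm-Hydro-tRNAseq alone took 0.326% ± 0.0200 of its signal. The 60 that were listed in YAMAT-seq alone took 1.25% ± 0.106, and 14 of them had no read in these mice.

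Sums over groups of tRNAs with a shared structure, modification or first anticodon base did not overlap between the assays for 7 of 8 groups. That is near the share over all features, 87.2% of isodecoders, 83.3% of anticodons and 81.8% of families, and some groups share members. Class II tRNAs, the leucine, serine and selenocysteine tRNAs with a long variable arm, took 2.17% ± 0.363 in dm-Hydro-tRNAseq against 6.70% ± 0.330 in YAMAT-seq. Anticodons beginning with A that are edited to inosine took 5.76% ± 0.766 in dm-Hydro-tRNAseq against 11.98% ± 0.783 in YAMAT-seq. The families that carry queuosine at the first anticodon base, Asn, Asp, His and Tyr, took 11.0% ± 0.576 in dm-Hydro-tRNAseq against 9.72% ± 0.440 in YAMAT-seq, a narrow gap in which a higher histidine and a lower aspartate share offset each other. The anticodons whose 5-methylcytosine the study assayed (Gly-GCC, Glu-TTC, Glu-CTC, Asp-GTC, Val-AAC and Pro-TGG) took 33.4% ± 4.33 in dm-Hydro-tRNAseq against 28.5% ± 1.58 in YAMAT-seq and overlapped.

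By first anticodon base, C took 56.8% ± 2.89 in dm-Hydro-tRNAseq against 38.5% ± 0.164 in YAMAT-seq, and G took 25.01% ± 3.23 in dm-Hydro-tRNAseq against 16.6% ± 0.536 in YAMAT-seq. T took 12.3% ± 0.489 in dm-Hydro-tRNAseq against 32.9% ± 0.518 in YAMAT-seq, and A took 5.83% ± 0.785 in dm-Hydro-tRNAseq against 11.98% ± 0.783 in YAMAT-seq. Each of these groups had p = 0.1 in the exact two-sided permutation test, the smallest possible without pairing by mouse, or 0.114 adjusted over 8 groups, except the 5-methylcytosine group (p = 0.2).

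The shares were also summed by the discriminator base of the RefSeq genes, a grouping chosen after the shares had been seen. Of 46 matched anticodons, 10 had genes with different last bases and are left out of the sums. The 22 anticodons whose genes all ended in A took 45.8% ± 4.76 in dm-Hydro-tRNAseq against 19.1% ± 2.29 in YAMAT-seq, and the 4 ending in T took 36.8% ± 4.46 in dm-Hydro-tRNAseq against 7.63% ± 0.549 in YAMAT-seq. Gln-CTG alone made up 36.5% in dm-Hydro-tRNAseq against 3.81% in YAMAT-seq of the sum for T, while Thr-AGT (0.106% in dm-Hydro-tRNAseq against 0.408% in YAMAT-seq), Thr-CGT (0.0822% in dm-Hydro-tRNAseq against 1.53% in YAMAT-seq) and Thr-TGT (0.0784% in dm-Hydro-tRNAseq against 1.89% in YAMAT-seq) had smaller shares in dm-Hydro-tRNAseq. The 7 ending in G took 1.64% ± 0.342 in dm-Hydro-tRNAseq against 20.0% ± 0.143 in YAMAT-seq, and the 3 ending in C, all proline, took 0.946% ± 0.105 in dm-Hydro-tRNAseq against 26.2% ± 3.52 in YAMAT-seq.

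Counted by the commonest last base, 10 of 13 anticodons ending in G were lower in dm-Hydro-tRNAseq, 0 were higher and 3 did not pass (median difference -2.84). All 3 ending in C were lower (median -4.71). Of 25 ending in A, 12 were higher and 9 lower (median 0.05), and of 6 ending in T, 1 was higher and 4 were lower (median -2.56), beside 13 higher and 27 lower of 48 in all (median -1.34). Families and glycine, proline or arginine anticodons share last bases, so these counts, which come from uncentred shares, are not independent, and the part of the last base in the differences was not tested.

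**Figure D5:**
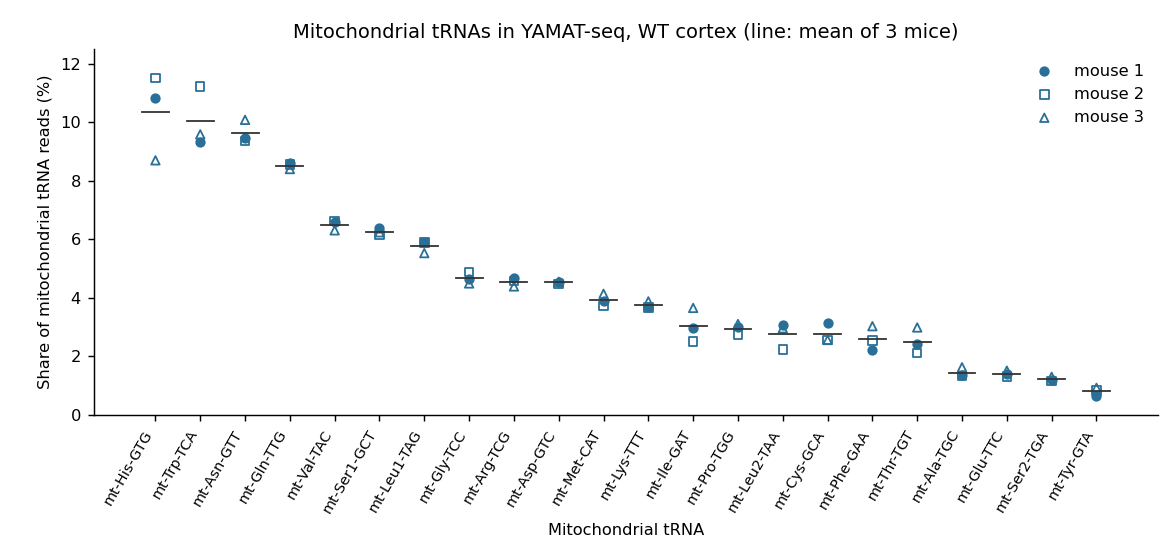
Share of the mitochondrial tRNA reads (%) for each of 22 mitochondrial tRNAs in YAMAT-seq, 1 symbol a mouse, with a line at the mean. The first 4 tRNAs lie between 8.40% and 11.5% in every mouse, above the other 18.

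Mitochondrial tRNAs, which serve the translation of the respiratory chain subunits coded in the organelle, were listed in YAMAT-seq. They took 24.99%, 27.6% and 26.6% of all reads in mice 1 to 3 (Wilson 95% intervals 24.7% to 25.3%, 27.2% to 27.9% and 26.3% to 26.9%, counting error only), from 23994, 21473 and 25457 reads. The mean was 26.4% ± 1.30 (SD, n = 3), or 0.359 ± 0.0240 mitochondrial reads for each nuclear read.

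The most abundant mitochondrial tRNAs were those for histidine, tryptophan, asparagine and glutamine. mt-His took 10.8%, 11.5% and 8.70% of mitochondrial reads, mt-Trp 9.33%, 11.2% and 9.59%, mt-Asn 9.45%, 9.36% and 10.1%, and mt-Gln 8.59%, 8.55% and 8.40%. The first 3 overlapped in their values over the mice, so their order is not resolved. The genes of the top pair are printed here from the same build, with the anticodon in capitals.
mt-His-GTG: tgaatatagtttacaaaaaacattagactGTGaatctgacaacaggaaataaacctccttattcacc
mt-Trp-TCA: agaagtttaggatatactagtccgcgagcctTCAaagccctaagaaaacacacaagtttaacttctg
They lie at chrMT:11546-11612 and chrMT:4950-5016, both on the plus strand, and end in C and G.

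The 4 leading mitochondrial tRNAs were the 4 whose genes end in C or G. The 17 that end in A ranged between 0.804% and 6.51% with a median of 3.05%, and mt-Cys, which ends in T, had 2.76%. This grouping by last base was also chosen after the shares had been seen, and the part of the last base was not tested. Nuclear histidine tRNA took 0.104% of nuclear reads in the same libraries. In each of them mt-His was among the first 3 of the mitochondrial pool. The lowest were mt-Ala, mt-Glu, mt-Ser2 and mt-Tyr, at 1.43% ± 0.170, 1.41% ± 0.102, 1.22% ± 0.0740 and 0.804% ± 0.141. mt-Glu and mt-Tyr lay apart without overlap, whereas mt-Ala and mt-Glu overlapped.

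Between these ends, mt-Val (6.51% ± 0.173), mt-Ser1 (6.26% ± 0.115) and mt-Leu1 (5.78% ± 0.214) formed a group, followed by mt-Gly, mt-Arg and mt-Asp at 4.53% to 4.68%, mt-Met at 3.92% and mt-Lys at 3.75%. In every mouse mt-Val lay above mt-Ser1, mt-Ser1 above mt-Leu1 and mt-Met above mt-Lys, although over the mice the values of mt-Val and mt-Ser1 and those of mt-Met and mt-Lys overlapped. The order of mt-Gly, mt-Arg and mt-Asp varied between mice. mt-Ile, mt-Pro, mt-Leu2, mt-Cys, mt-Phe and mt-Thr lay between 2.51% and 3.05%. The 14 tRNAs coded on the plus strand summed to 71.3% ± 0.845 of mitochondrial reads, and the 8 on the minus strand to 28.7% ± 0.846.

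For 6 of 20 amino acids, Leu, Trp, Asn, Ile, His and Phe, mitochondrial reads outnumbered nuclear reads in every mouse. The ratio of mitochondrial to nuclear reads was 31.3, 45.8 and 31.6 for histidine and 2.56, 4.21 and 2.16 for leucine. For phenylalanine it was 88.2, 272 and 110, over 6, 2 and 7 nuclear reads. At the other end, proline gave 0.0396, 0.0347 and 0.0483 mitochondrial reads for each nuclear read. The nuclear reads here are those of YAMAT-seq, so the ratios describe that assay alone. Nuclear histidine took 0.104% in YAMAT-seq against 8.42% in dm-Hydro-tRNAseq, phenylalanine 0.00728% against 0.0682%, and proline 26.2% against 0.946%. On the uncentred shares, tryptophan was higher in YAMAT-seq (0.581% against 0.217%), and leucine, asparagine and isoleucine did not pass.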

How the data were processed

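Cortical RNA of 3 WT mice had been sequenced by dm-Hydro-tRNAseq and YAMAT-seq, and labels gave the same tag numbers in both assays. For dm-Hydro-tRNAseq, the authors ran cutadapt, then used BWA to place reads on GtRNAdb and mitotRNAdb sequences, allowing 2 mismatches, divided reads that matched several tRNAs, and deposited CPM values; tRNAs with a group mean of at least 20 CPM were tested by them. For YAMAT-seq, the authors trimmed reads with cutadapt, removed duplicates with UMI-tools, merged pairs with Pear and deposited counts normalised with DESeq2, used here as a signal; the aligner was not given in the sources used here. One read was recovered as the step of the YAMAT-seq values after undoing median-of-ratios size factors over 7 libraries, the knockout ones included. The Riboseq table, used for amino acid demand only, held a signal that the authors had scaled and corrected.

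Each value was divided by the nuclear tRNA sum of its library. Shares were compared as log2(percent + 0.005) with limma 3.58.1 (trend, R 4.3.3), 3 against 3 libraries, with Benjamini-Hochberg adjustment and a threshold of 0.05, over isodecoders listed in both tables with a mean share of at least 0.01%. Log2 differences are dm-Hydro-tRNAseq minus YAMAT-seq on that scale, which understates low tRNAs, and ± after them is the SE. Summed groups and the effective number were compared with exact permutation tests that did not pair libraries by mouse. The limma fits were tested on simulated data. Named tRNAs were all families, the 10 highest isodecoders and anticodons of each assay, the 8 isodecoders and 6 anticodons with the largest difference in each direction, all glycine isodecoders, Arg-TCT-4-1, selenocysteine and initiator tRNAs, and all mitochondrial tRNAs. Gly-TCC and the arginine anticodons other than Arg-TCT were named after their values had been seen. Members and lists were chosen with earlier results of these data known. Alternatives were other pseudocounts, filters, denominators, median centring, leaving out 2 glycine isodecoders or each library, and the mouse as a replicate block. The tag numbers pair the libraries; over 148 isodecoders, deviations from the assay means correlated at 0.142, 0.0510 and 0.0955 between libraries of the same mouse. Columns of the authors' own comparisons and knockout values were not used in any comparison.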

Additional observations from a re-analysis of the deposited data

How the results depend on the processing

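Of 79 named tRNAs, anticodons and families, the direction and the side of the 0.05 threshold held for 79 under both other pseudocounts, the shared denominator and the loss of each dm-Hydro-tRNAseq library or of YAMAT-seq mouse 1. Many of the 79 were named for their large differences. Over all 148 isodecoders, 2 and 3 of the 131 calls were lost under the other pseudocounts. Without dm-Hydro-tRNAseq mouse 1, 2 or 3, 11, 7 and 9 were lost, and without YAMAT-seq mouse 1, 7 were lost. Median centring changed most: 28 anticodons were then higher and 16 lower, and 13 families higher and 7 lower. Gly-CCC (0.85), selenocysteine (0.68) and tryptophan (0.70) turned positive, Lys-CTT-3-1, SeC-TCA-1-1, Lys-CTT, alanine and lysine no longer passed, and iMet-CAT-3-1, Gln-TTG, Asn, Ile, Leu and Met passed. Centring sets the middle tRNA of each library equal, so differences moved by construction. With a minimum share of 0.1%, 85 isodecoders were tested, 25 higher and 55 lower, and with no minimum 158 were tested, 63 higher and 73 lower. With the mouse as a replicate block, 56 isodecoders were higher and 76 lower, 13 and 28 anticodons, and 7 and 11 families, and iMet-CAT-2-1 was the only named tRNA whose call changed. Leaving out each library in turn gave 52 to 58 isodecoders higher and 68 to 84 lower, 13 anticodons higher and 27 to 33 lower, and 7 to 8 families higher and 11 to 12 lower. Met passed without YAMAT-seq mouse 2 (-0.54, adjusted p = 0.00646) and Ile without YAMAT-seq mouse 3 (0.72, adjusted p = 0.0432). Gly lost its call without Gly-GCC-3-1 and Gly-GCC-4-1. YAMAT-seq depth limits tRNAs of few reads, such as Phe.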

Other observations

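The family shares were set beside the demand for each amino acid, taken as its share of codons in 12577 coding sequences weighted by the WT values of the ribosome profiling experiment, which used other mice. Over 20 amino acids, the dm-Hydro-tRNAseq shares correlated with demand by footprints at r = 0.26 (rho = 0.34) and the YAMAT-seq shares at r = 0.41 (rho = 0.43), with shares on the log2 scale and as a description. Glutamine took 8.82 times its demand in dm-Hydro-tRNAseq and 1.59 times in YAMAT-seq. Proline took 0.162 times its demand in dm-Hydro-tRNAseq against 4.50 times for YAMAT-seq, and histidine 3.55 times in dm-Hydro-tRNAseq against 0.0436 times for YAMAT-seq. Phenylalanine lay far below demand in both assays, at 0.0188 times in dm-Hydro-tRNAseq against 0.00201 times for YAMAT-seq.

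The number of RefSeq genes for an anticodon was compared with its share over 46 anticodons with 393 genes. It correlated at r = 0.40 (rho = 0.47) with the dm-Hydro-tRNAseq shares and at r = 0.36 (rho = 0.25) with the YAMAT-seq shares. Genes on chromosomes not used here are not counted.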
